A study of Homo sapiens with 36 samples.

Results

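The BCL2 family genes described here are 10 genes that set whether the outer membrane of the mitochondrion is breached in apoptosis: the pro-survival genes BCL2L1 and MCL1, the pore-forming effectors BAX and BAK1, and the BH3-only genes BBC3, PMAIP1, BCL2L11, BID, BIK and BMF. They were chosen by name, as rows of a gene count table whose Ensembl identifier maps to 1 of these symbols, and each of the 10 matched 1 of the 61544 rows. All 10 passed the low-count filter and are among the 20767 genes tested. The measurement is RNA-seq of polyadenylated RNA. The cells are MIA PaCa-2, a line from a human pancreatic carcinoma, engineered for Cas9 expression induced by doxycycline (dox), so every group carries the inducible Cas9 system and a guide RNA. There were 12 groups of 3 libraries: a line with a guide against PELO, a line with a guide against HBS1L and a line with a non-targeting control guide (NTC), each grown with 2 µg/mL dox or without it and collected at 48 h or 96 h. The series asks how cells with a destabilised SKI complex respond to loss of PELO or HBS1L, the partners that rescue ribosomes stalled on messenger RNA. The sources used here do not give whether a line is 1 clone, what share of its cells was edited, or whether the 3 libraries of a group were grown apart; the p-values rest on the spread between libraries, which may be technical.

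Total counts per library ran from 45356024 to 107436235, the highest in PELO dox replicate 2 at 96 h. HBS1L RNA averaged 36.2 ± 0.90 CPM (counts scaled to a common library total) in HBS1L dox cells and 105.2 ± 1.75 CPM in HBS1L cells without dox at 48 h, and 33.8 ± 0.33 against 110.7 ± 1.98 CPM at 96 h (SD, n = 3 each). PELO RNA averaged 20.7 ± 0.40 CPM in PELO dox cells and 25.2 ± 1.33 CPM in PELO cells without dox at 48 h, and 28.3 ± 1.46 against 29.1 ± 1.99 CPM at 96 h; a guide that shifts the reading frame need not lower the RNA, so this checks little. The epithelial keratins KRT8 and KRT18 lay between 711 and 2022 CPM over the libraries, while the epithelial markers EPCAM and CDH1 had at most 3 counts in any library. CDKN2A and MTAP, which lie in a band deleted in MIA PaCa-2, had at most 1 and 2 counts. Libraries taken at 48 h and at 96 h are numbered in different blocks, so time and library block cannot be told apart. Single libraries stood apart within groups. The chi-square per gene between PELO dox replicate 1 and the other two at 48 h was 17.4 and 18, against 1.81 between replicates 2 and 3. For PELO replicate 3 without dox it was 16.8 and 18.4 against 2.03 at 48 h, and 16.1 and 17.9 against 2.33 at 96 h. PELO dox replicate 1 at 96 h had 13.6 and 13.8 against 3.98, and at 96 h replicate 3 stood apart likewise in the NTC groups with dox (13.4 and 14.1 against 4.33) and without (19.1 and 14.9 against 4.03). HBS1L dox replicate 3 at 96 h stood apart too, with 10 and 8.64 against 2.73. The calls that were lost without a library are given beside the results.

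BCL2 family proteins act by binding each other. BCL-XL, the main product of BCL2L1, and MCL1 hold back BAX and BAK; BH3-only proteins occupy the groove of the pro-survival proteins, and some of them also activate BAX and BAK directly. BBC3 encodes PUMA, which binds all the main pro-survival proteins, PMAIP1 encodes NOXA, which prefers MCL1, BCL2L11 encodes BIM, and BMF and BIK encode further BH3-only proteins. BID is cleaved by caspase-8 to its active form. BBC3 and PMAIP1 are known targets of stress pathways that act through ATF4. MCL1 RNA and protein turn over fast, and RNA levels of these genes say nothing here about protein, cleavage or splice forms such as the short form of BCL2L1.

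BBC3 and PMAIP1 are shown by their promoters because their RNAs moved together at 48 h and parted at 96 h, and BMF because its RNA moved the opposite way. The sequences run from 250 bases before to 50 bases after the RefSeq start (GRCh38.p14), on the gene's strand, and capitals mark 2 motifs searched on both strands: the GC box GGGCGG and the E-box CACGTG. The BBC3 window is chr19:47232618-47232917 (minus strand), the PMAIP1 window chr18:59899746-59900045 (plus strand) and the BMF window chr15:40108830-40109129 (minus strand), the more upstream of the 2 BMF starts listed.
BBC3: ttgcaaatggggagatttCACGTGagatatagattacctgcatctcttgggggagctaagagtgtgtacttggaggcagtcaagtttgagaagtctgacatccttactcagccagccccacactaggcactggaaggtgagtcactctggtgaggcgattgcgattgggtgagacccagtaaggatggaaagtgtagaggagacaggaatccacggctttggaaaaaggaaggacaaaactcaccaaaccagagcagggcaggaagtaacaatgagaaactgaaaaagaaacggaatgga
PMAIP1: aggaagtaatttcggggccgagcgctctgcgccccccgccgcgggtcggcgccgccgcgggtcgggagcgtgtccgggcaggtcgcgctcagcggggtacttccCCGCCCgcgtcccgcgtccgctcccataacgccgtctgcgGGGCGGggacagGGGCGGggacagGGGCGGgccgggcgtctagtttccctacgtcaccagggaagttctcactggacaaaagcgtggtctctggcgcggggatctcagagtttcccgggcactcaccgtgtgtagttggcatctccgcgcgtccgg
BMF: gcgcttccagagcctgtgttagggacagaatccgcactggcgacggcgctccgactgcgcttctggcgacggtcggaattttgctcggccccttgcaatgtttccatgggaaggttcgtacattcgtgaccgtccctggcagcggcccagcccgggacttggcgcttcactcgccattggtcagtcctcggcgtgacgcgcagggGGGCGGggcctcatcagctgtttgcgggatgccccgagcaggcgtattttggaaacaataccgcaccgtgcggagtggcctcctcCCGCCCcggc

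The BBC3 and PMAIP1 windows differ in composition. The BBC3 window had 48.0% GC, 5 CpG dinucleotides, 0 GC boxes and 1 E-box; the PMAIP1 window had 71.3% GC, 42 CpG dinucleotides and 4 GC boxes. The BMF window had 65.0% GC, 31 CpG dinucleotides and 2 GC boxes, whereas its second listed start, at chr15:40106917-40107216, had 50.3% GC and 1 CpG. Over the 35116 listed starts of all genes the median was 58.7% GC with 14 CpG dinucleotides, 45.0% held a GC box and 7.26% held CACGTG. Neither the cyclic AMP response element TGACGTCA, found in 1.85% of all windows, nor TGATGNAA, the core of the composite ATF4 and C/EBP element, found in 3.62%, was in any of the 14 windows of the 8 members listed; MCL1 and BIK were not among them. No match says only that these letters are not in these windows.

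Per kilobase of exon, the effectors and pro-survival genes stood above the BH3-only genes. Averaged over the 12 groups, MCL1 was highest at 109 CPM per kb, followed by BAX at 46.1, BCL2L1 at 43.3 and BAK1 at 27.3 CPM per kb. Among the BH3-only genes BID had 14.0, PMAIP1 9.14, BBC3 8.17, BCL2L11 2.73, BIK 1.13 and BMF 0.398 CPM per kb. Neighbours in this order were not always separate: BAX exceeded BCL2L1 in 8 of 12 groups, BID exceeded PMAIP1 in 9 and PMAIP1 exceeded BBC3 in 6, while every other neighbouring pair kept its order in 12 of 12. The genes also differed in how far they ranged between groups. The highest group mean was 7.99 times the lowest for BMF, 4.30 times for PMAIP1, 2.77 times for BBC3 and 2.62 times for BCL2L1, but 1.74 times for BCL2L11, 1.5 times for MCL1, 1.42 times for BID, 1.26 times for BAK1 and 1.23 times for BAX. BIK ranged over 1.63 times on 33 to 124 counts per library.

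**Figure D1:**
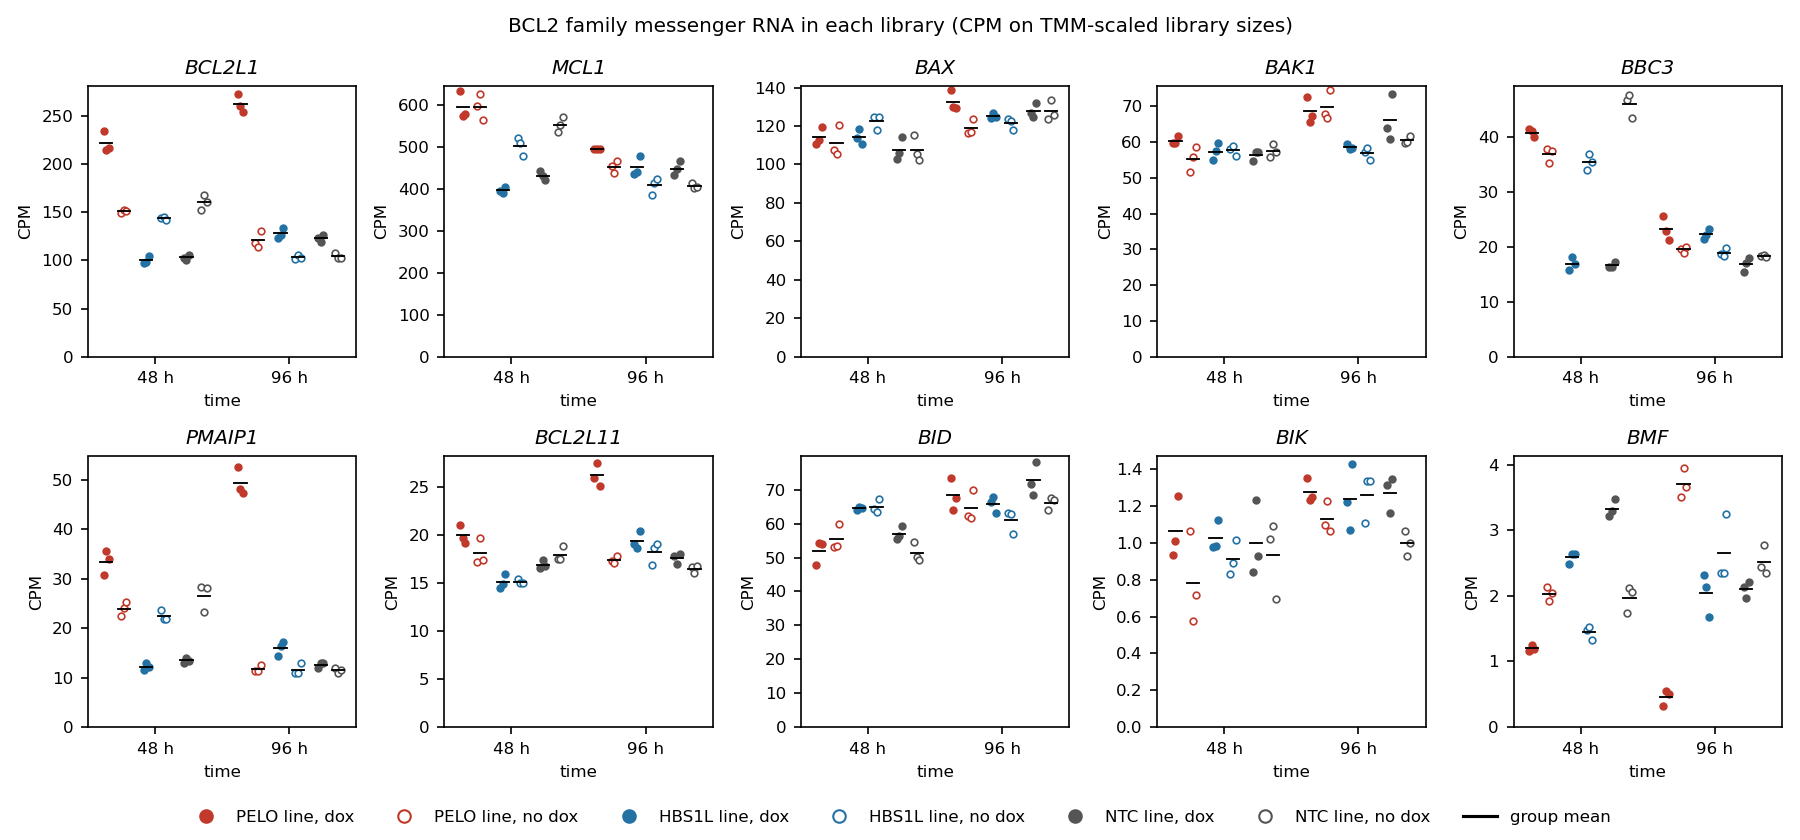
Levels of the 10 BCL2 family genes in the 36 libraries, in CPM on a linear axis from 0, with 1 filled (dox) or open (no dox) point per library, coloured by line, and a bar at the mean of each group of 3. BCL2L1 and PMAIP1 are highest and BMF is lowest in the PELO dox libraries at 96 h, whereas BAX and BAK1 stay within a narrow band.

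Limits of counting touch single genes, since the sources do not say whether reads were counted by strand. BCL2L11 (ENSG00000153094.24, chr2:111119378-111168447 on the plus strand of GRCh38) shares 10.9% of its exonic bases with MIR4435-2HG on the other strand, which had 1728.25 to 4913.58 counts against 804 to 2767 for BCL2L11. BCL2L1 (ENSG00000171552.14, chr20:31664452-31723989, minus strand) shares 43.0% with the antisense gene ABALON, which had 11 to 81.5 counts. BAK1 has a pseudogene copy, BAK1P1, with 39 to 106 counts against 2417 to 6604 for BAK1.

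The first comparison asks what dox did within each line at 48 h, and the lines went in opposite directions. In the PELO line BCL2L1 and PMAIP1 rose and BMF fell, while in the HBS1L line and in the NTC line BCL2L1, MCL1, BBC3 and PMAIP1 fell and BMF rose. BBC3 (ENSG00000105327.18, chr19:47220822-47232766, minus strand) differed most between the lines: the PELO dox libraries lay slightly above PELO libraries without dox, a small difference whose call did not hold in every setting, and the HBS1L and NTC dox libraries lay far below theirs. By edgeR's quasi-likelihood test with Benjamini-Hochberg adjustment over all genes, 5 members were higher and 1 lower in the PELO line, where 48% of all genes were called, 24.2% higher and 23.7% lower. For the HBS1L line 1 was higher and 4 lower, with 21.5% of all genes called, 10.1% higher and 11.4% lower. For the NTC line 2 were higher and 4 lower, with 35% called, 19% higher and 16% lower.

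BBC3 was at 41.5, 41.1 and 40.0 CPM in PELO dox libraries, against 37.9, 35.3 and 37.5 CPM in PELO libraries without dox. The HBS1L line had 15.8, 18.1 and 17.0 CPM with dox and 34.0, 36.9 and 35.5 CPM without. The NTC line had 16.3, 16.3 and 17.3 CPM with dox and 46.7, 47.7 and 43.5 CPM without. The dox libraries of the HBS1L and NTC lines thus lay below every other 48 h library, and the groups did not overlap in any line. The log2 fold change was 0.15 ± 0.06 in the PELO line (SE; adjusted p = 0.0284), -1.06 ± 0.06 in the HBS1L line (adjusted p = 8.46e-17) and -1.47 ± 0.06 in the NTC line (adjusted p = 2.63e-21).

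PMAIP1 (ENSG00000141682.12, chr18:59899948-59904306, plus strand) followed the same order. It had 30.7, 35.7 and 34.0 CPM in PELO dox libraries, against 22.4, 24.2 and 25.3 CPM in PELO libraries without dox. HBS1L dox libraries had 11.6, 12.9 and 12.1 CPM and those without dox 23.8, 21.8 and 21.9 CPM, and in the NTC line the values were 13, 14.1 and 13.4 CPM with dox and 28.4, 23.4 and 28.1 CPM without. The PELO dox libraries were the highest of the 48 h libraries and the groups of each line did not overlap. Log2 fold changes were 0.48 ± 0.07 in the PELO line, -0.88 ± 0.08 in the HBS1L line and -0.98 ± 0.08 in the NTC line (adjusted p = 7.93e-07, 2.03e-11 and 5.95e-13).

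BCL2L1, a pro-survival member, moved with PMAIP1. Its levels were 235, 215 and 217 CPM in PELO dox libraries, against 149.6, 152 and 152 CPM in PELO libraries without dox. HBS1L cells had 97.4, 98.7 and 105 CPM with dox and 144, 145 and 142 CPM without, and in the NTC line 103, 101 and 106 CPM with dox and 153, 168 and 161 CPM without. No groups overlapped within a line, and the log2 fold changes were 0.55 ± 0.05, -0.52 ± 0.05 and -0.64 ± 0.05 in the PELO, HBS1L and NTC lines. MCL1 (ENSG00000143384.14, chr1:150574551-150579738, minus strand) had 633, 573 and 578 CPM in PELO dox libraries and 597, 626 and 564 CPM in PELO libraries without dox, which overlap. It fell by 0.34 ± 0.05 in the HBS1L line and by 0.36 ± 0.05 in the NTC line on the log2 scale (adjusted p = 4.71e-07 and 8.82e-08), without overlap.

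BMF (ENSG00000104081.14, chr15:40087890-40108892, minus strand) ran against BCL2L1, BBC3 and PMAIP1. At 48 h it had 1.16, 1.24 and 1.19 CPM in PELO dox libraries, against 2.13, 1.92 and 2.04 CPM in PELO libraries without dox. HBS1L cells had 2.49, 2.64 and 2.64 CPM with dox and 1.48, 1.53 and 1.33 CPM without, and in the NTC line 3.22, 3.29 and 3.48 CPM with dox and 1.74, 2.11 and 2.05 CPM without. It fell by 0.76 ± 0.14 in the PELO line (adjusted p = 3.02e-05) and was higher by 0.84 ± 0.13 in the HBS1L line and 0.75 ± 0.12 in the NTC line (adjusted p = 3.74e-06 and 3.76e-06), with no overlap of groups.

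The remaining 48 h calls were small. In the PELO line BCL2L11 differed by 0.14 ± 0.06 (adjusted p = 0.0359) and BIK by 0.47 ± 0.19 (adjusted p = 0.0407), and in both the libraries with and without dox overlapped. Together with BBC3 these calls depended on single libraries. BBC3 lost its call without PELO dox replicate 1 or 2 or without PELO replicate 2 not given dox. BCL2L11 lost it without dox replicate 1 or 2 or replicate 1 or 3 not given dox, and BIK without dox replicate 2 or 3 or replicate 2 or 3 not given dox; the count of members called was then 3 to 5 in place of 6. These calls were also lost in other settings. BBC3 had 0.09 with library totals alone (adjusted p = 0.155), 0.13 with no low-count filter (adjusted p = 0.141) and 0.14 with limma on the deposited log2 table (adjusted p = 0.0537). BCL2L11 had adjusted p = 0.194, 0.261 and 0.0533 in the same settings, and BIK had 0.0534 to 0.108 in 5 settings. BID was higher by 0.15 ± 0.06 in the NTC line (adjusted p = 0.0478), a call lost without NTC replicate 2 or 3 of either group. It was lost too with RLE size factors (adjusted p = 0.0569), DESeq2 (adjusted p = 0.0579) and a block for replicate number (adjusted p = 0.0564). BAX and BAK1, the effectors, did not pass the test in any line at 48 h: group means were 107.6 to 122 CPM for BAX and 55.4 to 60.4 CPM for BAK1. In the PELO line BAK1 was near the threshold, at 0.12 ± 0.05 (adjusted p = 0.0534), and its libraries with and without dox did not overlap.

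**Figure D2:**
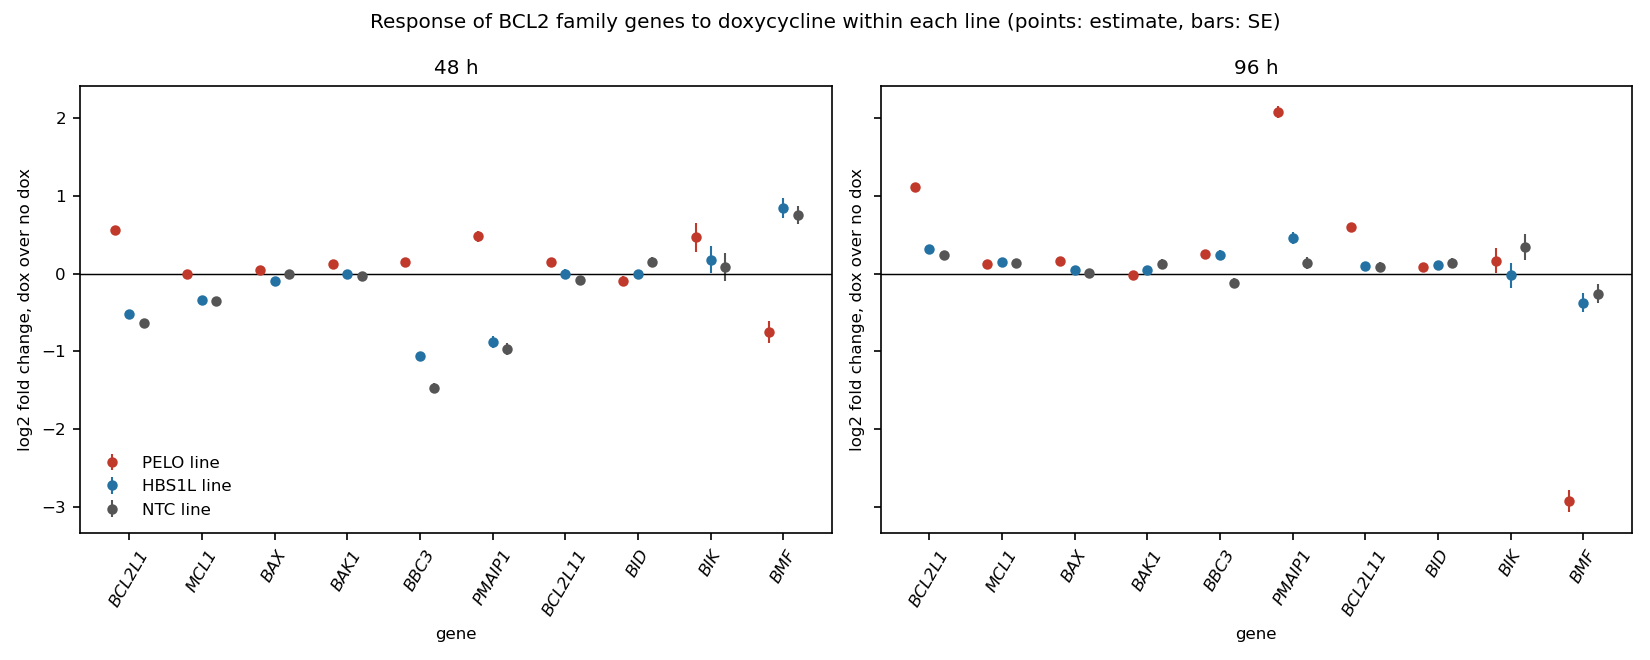
Log2 fold change of dox over no dox for each of the 10 genes in the PELO, HBS1L and NTC lines at 48 h and 96 h, with points at the estimate and bars of 1 SE. At 48 h the PELO points of BCL2L1, BBC3, PMAIP1 and BMF lie on the other side of 0 from those of the HBS1L and NTC lines, and at 96 h PMAIP1 at 2.08 and BMF at -2.93 in the PELO line stand farthest from 0.

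In each of the 3 lines, cells without dox had more BBC3 and PMAIP1 RNA at 48 h than at 96 h. PELO cells without dox averaged 36.9 CPM of BBC3 at 48 h and 19.5 CPM at 96 h, and 24.0 and 11.7 CPM of PMAIP1, so the dox differences of the PELO line at 48 h, and those between the times, stand on a raised level without dox. HBS1L cells without dox averaged 35.5 CPM of BBC3 at 48 h and 18.9 CPM at 96 h. NTC cells averaged 16.6 CPM of BBC3 with dox and 46.0 CPM without at 48 h, and 16.8 CPM with dox and 18.3 CPM without at 96 h. The stress transcription factor ATF4 moved alongside: it averaged 233.6 ± 6.45 CPM in NTC dox cells and 565 ± 15 CPM in NTC cells without dox at 48 h, against 206 ± 13.1 and 230.3 ± 19.3 CPM at 96 h (SD, n = 3 each). ATF3, a gene induced through ATF4, averaged 4.13 ± 0.44 CPM in NTC dox cells and 18.2 ± 0.12 CPM in NTC cells without dox at 48 h. The part of this difference between cultures in the 48 h results was not tested; dox, Cas9 induction and culture state cannot be told apart within a line. In bulk RNA a lower level can come from fewer cells with the RNA or from less RNA per cell, which also cannot be told apart.

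Markers of other cell types also differed with dox at 48 h. In the PELO line the endothelial markers, nearly all CDH5, summed to 7.32 to 10.7 CPM with dox and 33.0 to 40.7 CPM without, the fibroblast markers, nearly all COL1A2, to 87.1 to 96.4 CPM with dox and 141 to 147 CPM without, and the leukocyte markers, nearly all CD14, to 1.62 to 2.24 CPM with dox and 3.41 to 3.59 CPM without. The fibroblast and leukocyte sums went the other way in the other two lines. In the HBS1L line they were 177 to 188 and 5.53 to 6.15 CPM with dox and 123 to 132 and 3.44 to 3.76 CPM without. In the NTC line they were 232 to 249 and 8.07 to 8.52 CPM with dox and 154 to 164 and 3.84 to 4.33 CPM without. Endothelial sums were lower with dox in these lines too, at 12.4 to 14.9 CPM with dox and 20.8 to 25.1 CPM without in the HBS1L line and 26.1 to 30.2 against 31.9 to 38.1 CPM in the NTC line. Epithelial sums overlapped in the PELO line, at 3040 to 3100 CPM with dox and 2920 to 3240 CPM without. They overlapped in the NTC line too, at 2840 to 3030 CPM with dox and 2680 to 2940 CPM without. In the HBS1L line they were lower with dox, at 3230 to 3330 against 3530 to 3580 CPM. The part of these genes in the 48 h results was not tested.

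At 96 h the PELO line held the largest changes of the family among the 3 lines. PMAIP1 rose 4.22-fold, BCL2L1 2.17-fold and BCL2L11 1.51-fold, and BMF fell to 0.131 of its level without dox. In all, 6 members were higher and 1 lower in the PELO line, in which 66.8% of all genes were called, 34.4% higher and 32.5% lower. HBS1L cells had 4 higher and 1 lower, with 19.9% of all genes called, 11% higher and 8.9% lower. NTC cells had 1 called member, BCL2L1, which was higher, with 7.52% called, 3.89% higher and 3.63% lower. The PELO share is close to that of all genes, so the count is not a result about the family.

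The same marker lists were lower in PELO dox libraries at 96 h, the epithelial one included. The summed level of the 4 epithelial markers, nearly all of it from KRT8 and KRT18, was 1430 to 1760 CPM in PELO dox libraries and 2960 to 3320 CPM in PELO libraries without dox. The 5 fibroblast markers, of which 2 were tested, summed to 29.3 to 33.3 CPM with dox and 211 to 232 CPM without, nearly all from COL1A2, with DCN and LUM at no more than 3 counts. The 4 endothelial markers summed to 0.832 to 1.31 CPM with dox and 14.8 to 17.5 CPM without, nearly all from CDH5, and the 5 leukocyte markers to 0.488 to 0.777 CPM with dox and 3.68 to 5.16 CPM without, nearly all from CD14, while PTPRC and PECAM1 had no more than 3 and 2 counts in any library. HBS1L dox libraries were lower too, at 2660 to 2680 against 2850 to 3120 (epithelial) and 146 to 169 against 189 to 198 CPM (fibroblast). Their leukocyte sums were 2.46 to 3.12 against 4.1 to 4.97 CPM, and endothelial 8.63 to 10.1 against 16.1 to 22.6 CPM. NTC dox libraries were lower for fibroblast (181 to 206 against 218 to 225 CPM) and leukocyte markers (2.56 to 3.91 against 4.51 to 5.51 CPM). Their epithelial sums were higher and endothelial sums overlapped. The part of these genes in the results was not tested.

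PMAIP1 had 52.7, 48.1 and 47.4 CPM in PELO dox libraries at 96 h, against 11.3, 11.3 and 12.5 CPM in PELO libraries without dox. HBS1L cells had 14.3, 16.4 and 17.2 CPM with dox and 11, 10.9 and 13 CPM without, and in the NTC line 11.9, 13 and 12.9 CPM with dox and 11.9, 10.9 and 11.6 CPM without. The lowest PELO dox library was above every other 96 h library, the HBS1L groups did not overlap, and the NTC groups met at their edges. The log2 fold change was 2.08 ± 0.08 in the PELO line (adjusted p = 1.52e-23) and 0.46 ± 0.08 in the HBS1L line (adjusted p = 5.58e-05).

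BCL2L1 rose in each of the 3 lines at 96 h, most in the PELO line. The PELO line had 273, 261 and 254 CPM with dox and 118, 114 and 131 CPM without. The HBS1L line had 124, 127 and 134 CPM with dox and 101, 106 and 102 CPM without, and the NTC line 123, 119 and 127 CPM with dox and 108, 103 and 103 CPM without. None of these pairs of groups overlapped. The log2 fold changes were 1.12 ± 0.05, 0.31 ± 0.05 and 0.24 ± 0.05 (adjusted p = 4.91e-22, 3.9e-06 and 0.00106), so the control line showed a smaller change of the same sign.

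BBC3 parted from PMAIP1 at 96 h. It had 25.7, 22.8 and 21.2 CPM in PELO dox libraries, against 19.7, 19.0 and 19.9 CPM in PELO libraries without dox, and in the HBS1L line 21.5, 22.2 and 23.2 CPM with dox and 18.8, 18.3 and 19.7 CPM without. The PELO and HBS1L dox libraries thus lay in the same range, each above its own libraries without dox. Log2 fold changes were 0.25 ± 0.06 in the PELO line and 0.24 ± 0.06 in the HBS1L line (adjusted p = 0.000357 and 0.00395). The NTC line had 15.4, 17.0 and 18 CPM with dox and 18.4, 18.5 and 18.1 CPM without, which did not pass the test.

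BMF had 0.327, 0.556 and 0.506 CPM in PELO dox libraries at 96 h, on 16, 56 and 28 counts, against 3.50, 3.94 and 3.66 CPM in PELO libraries without dox, on 191, 212 and 199 counts. Every PELO dox library was thus below every other library of the study, and the log2 fold change was -2.93 ± 0.14 (adjusted p = 1.06e-19). HBS1L cells had 2.32, 2.14 and 1.67 CPM with dox and 2.35, 2.35 and 3.24 CPM without, a fall of 0.37 ± 0.12 (adjusted p = 0.026) that lost its call without dox replicate 3 or replicate 3 not given dox. The call was lost too with no low-count filter (adjusted p = 0.0696) and with limma on the deposited log2 table (adjusted p = 0.0591). A fit to libraries of the same time alone gave adjusted p = 0.0607. NTC cells averaged 2.10 CPM with dox and 2.52 CPM without, a difference in the same direction that did not pass after adjustment. BCL2L11 had 25.9, 27.5 and 25.1 CPM in PELO dox libraries and 17.3, 17.1 and 17.8 CPM in PELO libraries without dox, with no overlap and a log2 fold change of 0.59 ± 0.05 (adjusted p = 5.02e-12).

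Changes of MCL1 and BAX at 96 h were slight. MCL1 had 495.4, 494.5 and 495.5 CPM in PELO dox libraries and 455, 438 and 466 CPM in PELO libraries without dox, a log2 fold change of 0.13 ± 0.05 (adjusted p = 0.0139); the call was lost without any 1 of the 3 dox libraries or without replicate 1 or 2 not given dox. BAX (ENSG00000087088.21, chr19:48954815-48961798, plus strand) averaged 132.6 ± 5.48 CPM in PELO dox cells and 119 ± 3.91 CPM in PELO cells without dox, a log2 fold change of 0.16 ± 0.05 (adjusted p = 0.00531) that lost its call without dox replicate 1 or replicate 1 or 2 not given dox. Scaled by library totals alone, MCL1 had 0.04 (adjusted p = 0.452) and BAX 0.07 (adjusted p = 0.186). With limma on the deposited log2 table MCL1 had 0.10 (adjusted p = 0.0662). For HBS1L cells MCL1 had 0.14 ± 0.05 (adjusted p = 0.0227), lost without dox replicate 3 or replicate 1 not given dox. With library totals alone this call was lost too (adjusted p = 0.0685). NTC cells averaged 449 CPM of MCL1 with dox and 407 CPM without, a difference in the same direction that did not pass after adjustment. BAK1, BID and BIK did not pass after adjustment in any line at 96 h. In the NTC line all of them were higher with dox at an unadjusted p under 0.05 by edgeR's test. The BAK1 gene lies at chr6:33572547-33580293 (minus strand), BID at chr22:17734138-17774770 (minus strand) and BIK at chr22:43110748-43129712 (plus strand).

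**Figure D3:**
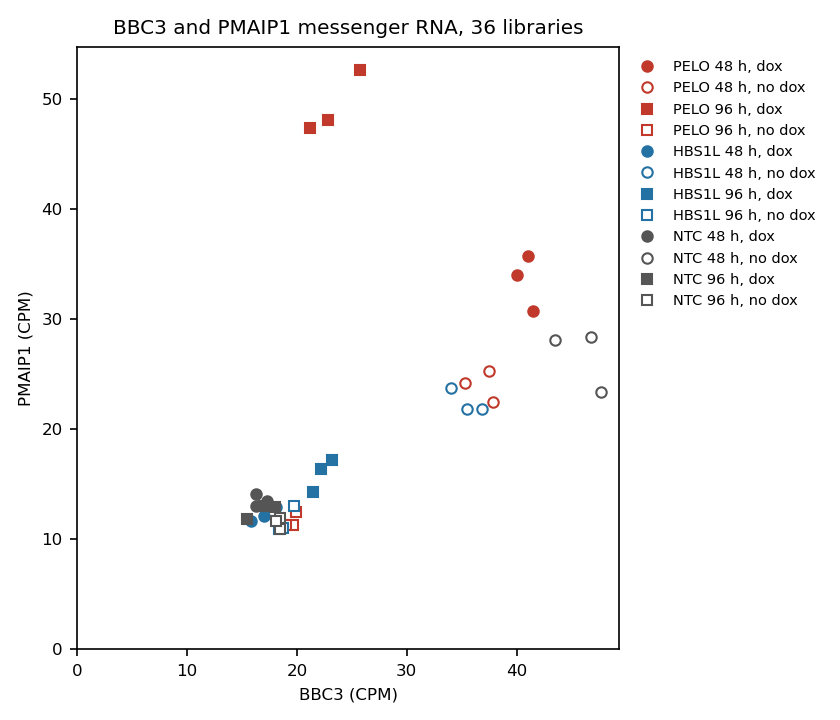
BBC3 (horizontal axis) against PMAIP1 (vertical axis) in CPM, with 1 point per library, coloured by line, filled with dox and open without, round at 48 h and square at 96 h. PMAIP1 reaches 52.7 CPM in the PELO dox libraries at 96 h, while BBC3 is highest in the 48 h libraries without dox and in the PELO dox libraries at 48 h.

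The next comparison asks how the targeted lines responded beyond the control line, that is the log2 dox response in the PELO or HBS1L line after subtracting the NTC line's. For the PELO line at 48 h, 5 members were higher and 2 lower, where 47.9% of all genes were called, 22.9% higher and 24.9% lower. At 96 h 4 were higher and 1 lower, where 54.8% were called, 28.7% higher and 26% lower. The pro-survival gene BCL2L1 responded by 1.19 ± 0.06 at 48 h and 0.88 ± 0.06 at 96 h (adjusted p = 1.39e-17 and 2.85e-14). Among BH3-only genes, PMAIP1 responded by 1.45 ± 0.11 and 1.94 ± 0.11 (adjusted p = 3.95e-14 and 2.57e-17) and BBC3 by 1.62 ± 0.08 and 0.37 ± 0.08 (adjusted p = 1.52e-18 and 0.000295). BMF fell by 1.51 ± 0.19 and by 2.67 ± 0.19 (adjusted p = 1.59e-08 and 1.95e-14). At 48 h the BBC3 value is made of 0.15 in the PELO line and -1.47 in the NTC line, so most of it is the fall in the control line. In the same way the 48 h value of PMAIP1 is made of 0.48 and -0.98, and that of BCL2L1 of 0.55 and -0.64. That of BMF is made of -0.76 and 0.75, so the control line's change is a large part of each. The genes higher beyond the control line included a pro-survival gene and BH3-only genes.

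Smaller responses of the PELO line beyond the control line were less secure. MCL1 was higher by 0.35 ± 0.07 at 48 h (adjusted p = 2.12e-05), where the PELO line itself did not pass and the NTC line fell, while at 96 h its interval ran from -0.14 to 0.11. BCL2L11 was higher by 0.23 ± 0.08 at 48 h (adjusted p = 0.0179), a call lost without PELO dox replicate 1, PELO replicate 1 or 3 not given dox, NTC dox replicate 1 or NTC replicate 3 not given dox, and also with library totals alone (0.18, adjusted p = 0.0624) and with no low-count filter (0.19, adjusted p = 0.18); at 96 h it was higher by 0.50 ± 0.08 (adjusted p = 9.99e-07). BID fell by 0.24 ± 0.08 at 48 h (adjusted p = 0.0164), a call lost without PELO dox replicate 1 or PELO replicate 3 not given dox. For BAX the interval was -0.10 to 0.18 at 48 h and 0.02 to 0.29 at 96 h, where the adjusted p was 0.0608, and BAK1 and BIK passed at neither time. Before adjustment BAK1 had p under 0.05 at both times by edgeR's test, higher at 48 h and lower at 96 h.

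As a response to dox, the HBS1L line differed from the control line in BBC3 alone among the 10 genes by edgeR's test with TMM scaling and the low-count filter. BBC3 was higher by 0.41 ± 0.08 at 48 h (adjusted p = 0.00258), where 3.85% of all genes were called, 1.41% higher and 2.44% lower. It was higher by 0.36 ± 0.09 at 96 h (adjusted p = 0.00446), where 10.7% were called, 5.41% higher and 5.32% lower. The 48 h value rests on libraries without dox: between the dox libraries alone, a comparison added after the data were seen, BBC3 averaged 17.0 CPM in HBS1L cells and 16.6 CPM in NTC cells, a log2 difference of 0.03 (adjusted p = 0.787), whereas at 96 h it was 0.41. Other members passed between dox libraries alone at 48 h: MCL1 at -0.12 (adjusted p = 0.0491), BCL2L11 at -0.16 (adjusted p = 0.0349), BID at 0.18 (adjusted p = 0.0243) and BMF at -0.36 (adjusted p = 0.0194), each with the opposite sign to its response, which did not pass (0.01, 0.08, -0.16 and 0.08). At 96 h BAK1 passed between dox libraries at -0.17 (adjusted p = 0.0116). Of all genes, the comparison of dox libraries alone called 4791 at 48 h and 6185 at 96 h. The response called fewer, 799 (3.85%) and 2228 (10.7%). PMAIP1 was higher by 0.32 ± 0.11 at 96 h without passing the test (adjusted p = 0.0603), but passed between dox libraries alone at 0.34 (adjusted p = 0.000966). As a response at 96 h PMAIP1 also passed with library totals alone (adjusted p = 0.0377) and with no low-count filter (adjusted p = 0.0199). It passed too by DESeq2 (adjusted p = 0.0482) and by limma on the deposited log2 table (adjusted p = 0.0483). For BCL2L1 the interval was -0.01 to 0.25 at 48 h and -0.05 to 0.21 at 96 h, for PMAIP1 at 48 h -0.12 to 0.30, and for BMF -0.26 to 0.43 at 48 h and -0.45 to 0.22 at 96 h.

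Between the dox libraries alone, PELO cells differed from NTC cells as in the comparison of responses for the leading members. At 48 h the log2 difference was 1.11 for BCL2L1, 0.46 for MCL1, 1.30 for BBC3, 1.31 for PMAIP1 and -1.47 for BMF, and at 96 h it was 1.09 for BCL2L1, 0.46 for BBC3, 1.97 for PMAIP1, 0.58 for BCL2L11 and -2.11 for BMF. MCL1 went the other way at 96 h: it passed between dox libraries at 0.14 (adjusted p = 0.00705), against a response of -0.01 that did not pass. BCL2L11 at 48 h was at 0.24 (adjusted p = 0.000397). BID at 48 h was then at -0.13 (adjusted p = 0.0596).

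**Figure D4:**
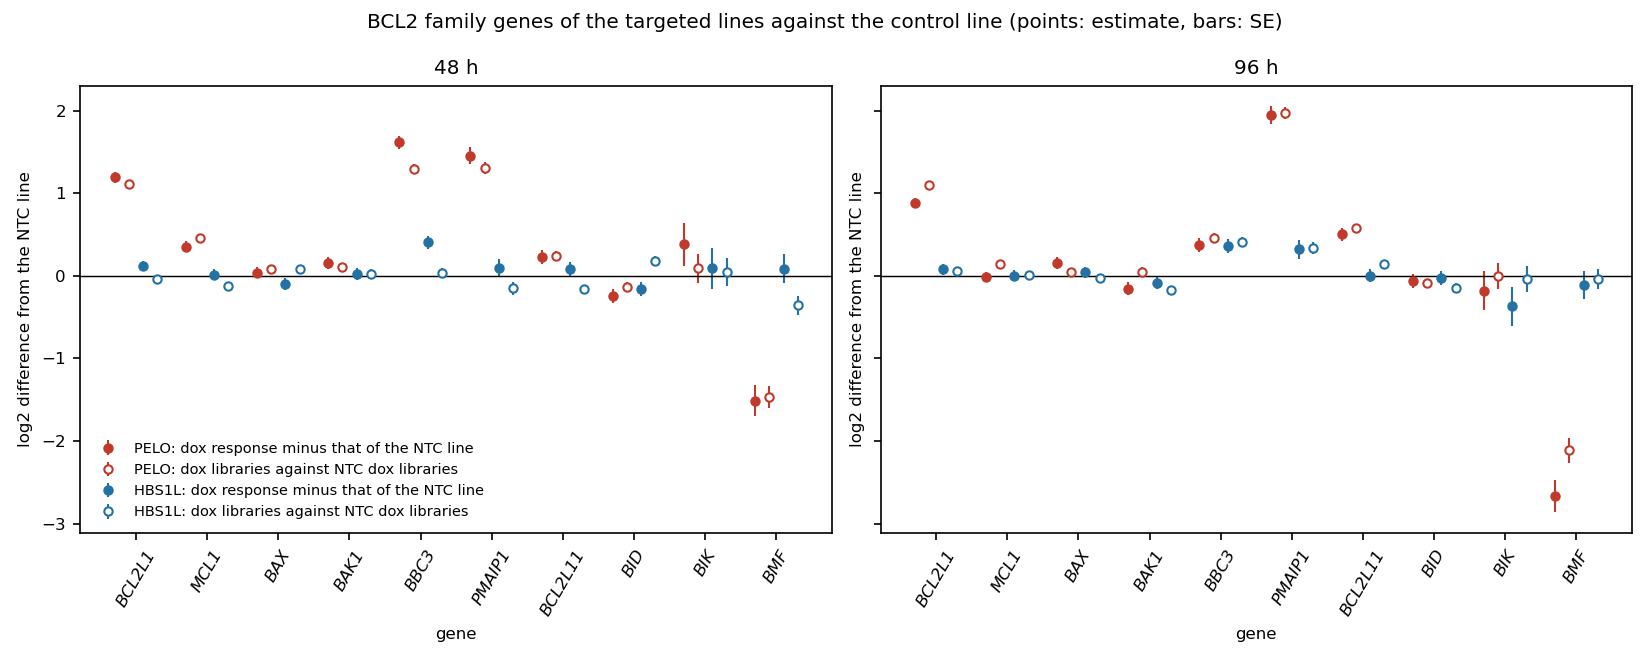
Dox response of the PELO line and of the HBS1L line beyond that of the NTC line, on the log2 scale, for the 10 genes at 48 h and 96 h (filled points), and the difference of dox libraries from NTC dox libraries (open points), with bars of 1 SE. BCL2L1, BBC3 and PMAIP1 are above 0 and BMF below 0 in the PELO line at both times, and in the HBS1L line BBC3 at 0.41 and 0.36 passed the test as a response.

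Set directly against the HBS1L response, the PELO response differed for 5 members at 48 h and 4 at 96 h. At 48 h, where 43.2% of all genes were called, the PELO minus HBS1L difference was 1.07 ± 0.06 for BCL2L1, 0.34 ± 0.07 for MCL1, 1.21 ± 0.08 for BBC3, 1.36 ± 0.11 for PMAIP1 and -1.60 ± 0.19 for BMF, and these 5 members passed (adjusted p at most 4.75e-05). At 96 h, where 55.5% were called, 4 members passed: BCL2L1 at 0.81 ± 0.06, PMAIP1 at 1.62 ± 0.11, BCL2L11 at 0.50 ± 0.08 and BMF at -2.56 ± 0.19. BBC3 did not differ detectably between the responses at 96 h, with a difference of 0.01 and an interval of -0.15 to 0.18. These comparisons share libraries with those beyond the control line and are not independent of them.

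The response of the PELO line beyond the control line differed between the times for 6 members, with 20.5% of all genes called. BBC3 was lower by 1.25 ± 0.12 at 96 h than at 48 h (adjusted p = 5.4e-10), BMF by 1.16 ± 0.27 (adjusted p = 0.00189), MCL1 by 0.37 ± 0.09 (adjusted p = 0.00338) and BCL2L1 by 0.31 ± 0.09 (adjusted p = 0.013), and PMAIP1 was higher by 0.49 ± 0.15 (adjusted p = 0.0183). BAK1 was lower by 0.31 ± 0.11 (adjusted p = 0.0338) although it passed at neither time. With no low-count filter the calls of BCL2L1 (-0.26, adjusted p = 0.0969) and BAK1 (-0.26, adjusted p = 0.136) were lost. PMAIP1 lost its call without NTC dox replicate 1 at 96 h or NTC replicate 2 not given dox at 48 h, and BAK1 lost it in 7 of the 24 fits that left out 1 library: at 48 h NTC dox replicate 1, NTC replicate 2 not given dox or PELO replicate 1 not given dox, and at 96 h PELO dox replicate 2, PELO replicate 3 not given dox, NTC dox replicate 3 or NTC replicate 2 not given dox. Within the PELO line itself the dox change was not smaller at 96 h than at 48 h for BBC3 (0.25 against 0.15), BCL2L1 (1.12 against 0.55) or MCL1 (0.13 against -0.002). At 48 h the NTC line changed by -1.47, -0.64 and -0.36 in these genes. Their lower values beyond the control line at 96 h thus include that fall of the control line at 48 h. For the HBS1L line the difference between the times passed for 0 members by edgeR (3.07% of all genes called), for 0 at an unadjusted p under 0.05, and for 0 by DESeq2 and by limma.

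Without dox, the lines already differed in some members. PELO cells against NTC cells at 48 h differed in BBC3, lower by 0.32 ± 0.06 (adjusted p = 0.000112), where 11.1% of all genes were called, 6.37% higher and 4.72% lower. HBS1L cells against NTC cells at 48 h differed in 8 members, 2 higher and 6 lower (37.9% called, 18.7% higher and 19.2% lower), among them BID at 0.34 ± 0.06, BAX at 0.18 ± 0.05, BBC3 at -0.38 ± 0.06 and BCL2L11 at -0.24 ± 0.06. Of the 6 fits that left out 1 library, 2 each lost the calls of MCL1, PMAIP1 and BMF and 1 lost that of BCL2L1. The MCL1 call was also lost with no low-count filter (-0.12, adjusted p = 0.0938). At 96 h PELO cells were higher than NTC cells in 4 members (21.8% called, 10.3% higher and 11.5% lower), BCL2L1 at 0.21 ± 0.05, MCL1 at 0.16 ± 0.05, BAK1 at 0.20 ± 0.05 and BMF at 0.56 ± 0.11. HBS1L cells against NTC cells at 96 h passed in 0 members by edgeR (0.135% called), with 1 (BCL2L11) at an unadjusted p under 0.05 and 0 by DESeq2 and by limma. Leaving out NTC replicate 2 at 96 h took the MCL1 call away in the PELO line.

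Other genes of the family and of the pathway were read from lists fixed by name. Of 13 further BCL2 family genes, 9 were tested; beyond the control line the PELO line had 4 higher and 2 lower at 48 h, where 22.9% of all genes were higher and 24.9% lower, and 4 higher and 3 lower at 96 h, where 28.7% were higher and 26% lower. HRK, a BH3-only gene, responded by 1.91 ± 0.15 and 2.24 ± 0.18, and at 96 h averaged 5.99 ± 0.18 CPM in PELO dox cells and 1.28 ± 0.04 CPM in PELO cells without dox. BCL2, the founding pro-survival gene, was higher by 1.09 ± 0.10 at 96 h, with 20.8 ± 0.62 CPM in PELO dox cells and 8.71 ± 0.77 CPM in PELO cells without dox. BNIP3L, a mitophagy receptor, was higher by 0.36 ± 0.06 at 48 h. BAD, a BH3-only gene controlled by phosphorylation, fell by 0.47 ± 0.10 and by 1.10 ± 0.10, and BCL2L12 fell by 0.22 ± 0.08 and by 0.37 ± 0.07. HRK passed in the HBS1L line too, at 0.55 ± 0.16 and 0.65 ± 0.19 (adjusted p = 0.0486 and 0.0188), but at 48 h the call was lost in most fits that left out 1 library, HBS1L dox replicates 1, 2 and 3 among them, and at 96 h without HBS1L dox replicate 3 or HBS1L replicate 1 not given dox.

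Downstream of the mitochondria, 13 of 13 genes were tested, and beyond the control line 6 were higher and 4 lower in PELO cells at 48 h, and 5 higher and 3 lower at 96 h, against 47.9% and 54.8% of all genes called at the 2 times. CASP8, which cleaves BID, was higher by 0.28 ± 0.05 at 48 h. CASP6 fell by 0.89 ± 0.11 and by 0.73 ± 0.10, and CASP9, the initiator caspase of the apoptosome, fell by 0.47 ± 0.10 and by 0.78 ± 0.10. For HBS1L cells 0 of these genes passed at 48 h by edgeR, DESeq2 and limma, with CASP8, XIAP, VDAC2 and MTCH2 at an unadjusted p under 0.05, and 1 passed at 96 h, against 3.85% and 10.7% of all genes called. Between dox libraries alone 7 passed at 48 h and 4 at 96 h. That comparison also called more of all genes, 4791 at 48 h and 6185 at 96 h. The HBS1L response beyond the control line called 799 (3.85%) and 2228 (10.7%). The ubiquitin ligase component FBXW7, which marks MCL1 for degradation, was higher by 0.23 ± 0.09 and 0.45 ± 0.09 in the PELO line, while HUWE1 and USP9X passed at neither time. The FBXW7 call at 48 h was lost without PELO dox replicate 2, any PELO or NTC library not given dox, or NTC dox replicate 1 or 3.

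Of 12 transcription factors known to act on BCL2 family genes, beyond the control line 8 were higher and 2 lower in PELO cells at 48 h, and 7 higher and 4 lower at 96 h, against 47.9% and 54.8% of all genes called in either direction. CEBPB rose by 2.34 ± 0.07 and 2.00 ± 0.07 and ATF3 by 4.47 ± 0.13 and 3.15 ± 0.14. ATF3 averaged 52.3 ± 3.22 CPM in PELO dox cells at 96 h, against 6.11 ± 1.07 CPM in PELO cells without dox. TP73 fell by 1.14 ± 0.16 and by 1.20 ± 0.16, and E2F1 fell by 0.59 ± 0.08 at 48 h. ATF4 stood at 803 ± 27.4 CPM in PELO dox cells at 96 h, 234 ± 28.3 CPM in PELO cells without dox, and DDIT3, which encodes CHOP, at 68.6 ± 3.2 against 15.5 ± 2.27 CPM. For HBS1L cells 3 of these factors rose and 1 fell at 48 h, where 3.85% of all genes were called. At 96 h 4 rose, where 10.7% of all genes were called. DDIT3 was higher by 0.96 ± 0.12 and ATF4 by 0.52 ± 0.09 at 96 h. Their part in the responses of the BCL2 family was not tested.

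The median response of the 10 genes beyond the control line was 0.29 in the PELO line at 48 h, against -0.04 over all genes tested, and 0.07 against 0.02 at 96 h. The median size regardless of sign was 0.37 for the members and 0.37 for all genes at 48 h, and 0.28 against 0.46 at 96 h. In the HBS1L line the members' median was 0.08 against -0.01 at 48 h and 0.00 against 0.01 at 96 h. The family did not move as a block: in the PELO line BBC3, BMF, PMAIP1 and BCL2L1 had the largest values at 48 h, and BMF, PMAIP1, BCL2L1 and BCL2L11 at 96 h.

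Over the 12 group means of log2 CPM, which share libraries and treatments and are given as a description, BCL2L1 ran with PMAIP1 (Pearson r = 0.961) and MCL1 with BBC3 (r = 0.906), and BMF ran against BCL2L1 (r = -0.887) and PMAIP1 (r = -0.884). The genes outside the family most like BBC3 were FGF21 (r = 0.989), ATXN2L (r = 0.981) and TSC22D3 (r = 0.976), and those most like PMAIP1 were ZYX (r = 0.988), CASC19 (r = 0.988) and TLCD5 (r = 0.979).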

How the data were processed

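The authors deposited a table of expected counts, that is gene counts that need not be whole (45.6% of values above 0 were fractional), and a table of log2 CPM; DRAGEN, featureCounts, Subread, edgeR and limma with build GRCh38.p13 are named in the submitters' processing notes, without versions, options, strand setting or annotation. The deposited counts, once rounded, went into edgeR 4.0.16 under R 4.3.3: filterByExpr (minimum count 10, minimum total 15), TMM scaling and a robust quasi-likelihood fit of the 12 group means over 36 libraries, with Benjamini-Hochberg adjustment over 20767 genes at 0.05. Levels are CPM on TMM-scaled totals, with SD over 3 libraries; log2 fold changes carry SE and 95% intervals. The script was tested on simulated data. The authors' deposited log2 table entered as an alternative with limma 3.58.1, DESeq2 1.42.0 as another; 9 alternatives and 36 fits without 1 library were run in all. Symbols matched 61445 of 61544 identifiers, positions are from GENCODE 29, promoters from RefSeq. No 2 libraries of a group agreed within sampling noise (lowest chi-square per gene 1.81). The members, lists and naming rules (all members; of each list, the 2 genes per direction with the smallest adjusted p in the PELO response beyond control; the 3 genes most like BBC3 and PMAIP1) were chosen with earlier results of these data known; some genes these rules name are not reported here. Counts limit BIK and BMF most, and p-values and intervals cover only the spread between these libraries.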

Additional observations from a re-analysis of the deposited data

Results flagged for a closer look

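Dox responses that differed between lines by the test of the difference itself are listed here as log2 differences. Beyond the control line, the PELO line differed at 48 h in BCL2L1 (1.19), MCL1 (0.35), BBC3 (1.62), PMAIP1 (1.45), BCL2L11 (0.23), BID (-0.24) and BMF (-1.51). At 96 h it differed in BCL2L1 (0.88), BBC3 (0.37), PMAIP1 (1.94), BCL2L11 (0.50) and BMF (-2.67). The HBS1L line differed from the control line in BBC3 at 48 h (0.41) and at 96 h (0.36).

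The PELO response differed from the HBS1L response at 48 h in BCL2L1 (1.07), MCL1 (0.34), BBC3 (1.21), PMAIP1 (1.36) and BMF (-1.60), and at 96 h in BCL2L1 (0.81), PMAIP1 (1.62), BCL2L11 (0.50) and BMF (-2.56). Between the times, the PELO response beyond the control line was different in BCL2L1 (-0.31), MCL1 (-0.37), BAK1 (-0.31), BBC3 (-1.25), PMAIP1 (0.49) and BMF (-1.16), each as 96 h minus 48 h. Groups of 3 libraries are too small for a test of a single value that stands apart. Several libraries that differed from the rest of their group over all genes are named with the depth of the libraries.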

How the results depend on the processing

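No called change of a member changed sign under the alternatives and left-out libraries run. In the PELO line at 48 h, where 6 members were called, 3 were called with no low-count filter, and 3 to 5 when 1 library was left out. In the HBS1L line at 96 h, where 5 were called, leaving out 1 library gave 3 to 5. In the NTC line at 96 h, where 1 was called, 2 were called with RLE size factors, no low-count filter, DESeq2, limma on the deposited log2 table and the replicate block, and leaving out 1 library gave 1 to 2. For the HBS1L response beyond the control line, where 1 was called at each time, the dox libraries alone, added after the data were seen, gave 4 at 48 h and 3 at 96 h; at 96 h library totals alone, no low-count filter, DESeq2 and limma gave 2, and leaving out 1 library gave 1 to 2. For PELO against NTC cells without dox at 48 h, library totals alone gave 2 in place of 1.

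Values that changed sign were not called as reported, but some passed once turned. Between dox libraries alone the HBS1L difference at 48 h was -0.038 for BCL2L1, -0.15 for PMAIP1 and 0.09 for BAX, which did not pass, and -0.36 for BMF, -0.12 for MCL1, -0.16 for BCL2L11 and 0.18 for BID, which passed; at 96 h it was -0.031 for BAX. The PELO difference at 96 h was 0.14 for MCL1, which passed, and 0.052 for BAK1. In the other settings that kept every library, values of members that changed sign lay between -0.068 and 0.044 and did not pass. The PELO minus HBS1L difference of BBC3 at 96 h was -0.047 with library totals alone and -0.030 with limma, and -0.084 to 0.046 when 1 library was left out; that of BMF in the HBS1L response beyond the control line at 96 h was -0.22 to 0.054.

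Counts over all genes moved by over 1.5 times in a few settings. The NTC line at 96 h gave 1561 calls, 851 with libraries of the same time, and 481 to 2141 with 1 library left out. The HBS1L response beyond the control line gave 799 and 2228 calls at 48 h and 96 h, 4791 and 6185 with the dox libraries alone, and 484 to 823 and 1391 to 2421 with 1 library left out; its change between times gave 637 calls and 290 to 798. HBS1L against NTC cells without dox at 96 h gave 28 calls, 95 with no low-count filter, 46 with DESeq2 and 12 with libraries of the same time. Of the lists, the 1 gene called among those acting on MCL1 stability in the PELO line at 48 h became 0 with library totals alone, no low-count filter or the replicate block. The 1 further family gene called in the HBS1L line at 48 h became 0 with RLE size factors, no low-count filter, DESeq2, libraries of the same time and the replicate block, and that at 96 h became 0 with no low-count filter. The dox libraries alone gave 2 further family genes in the HBS1L line at each time, 7 in place of 0 downstream genes at 48 h and 4 in place of 1 at 96 h, and at 48 h 7 in place of 4 transcription factors and 2 in place of 0 genes acting on MCL1 stability. The cause of these moves was not tested.

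Same-numbered libraries did not deviate together (correlations -0.208 to 0.199; 12 of 36 libraries correlated best with their own number), so the replicate block, which took away the calls of BIK in the PELO line and BID in the NTC line at 48 h and gave 2 members in the NTC line at 96 h, pairs by number only. Depth limits BIK and BMF, and library totals alone shifted the median of all genes by at most 0.10 on the log2 scale.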
